A study of Mus musculus with 8 samples.

Results

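The transcripts of the mitochondrial genome were compared between mouse mesenchymal stem cells (MSCs, bone stroma with the capacity to form osteoblasts, chondrocytes and adipocytes) kept at low and at atmospheric oxygen. All genes of the deposited count table whose symbol begins with mt- were taken, which gave 37 of 53465 gene identifiers, namely 13 mRNAs, 2 rRNAs and 22 tRNAs. The cells, called bone marrow MSCs in the labels and released from collagenase-treated limb bone in the methods of the study, came from mice of 3 to 5 months of age, which the study describes as male wild-type C57BL/6N, and the labels place their purification by cell sorting on culture day 12. Hypoxia-cultured cells (4 samples) were grown at 2% O2 and normoxia-cultured cells (4 samples) at 21% O2, with no allele, transgene or drug that differed between the groups. By the study's account, its experiments address long-term effects of normoxia, after cells were given time to adapt. The methods of the study state that a sorted population without blood cell markers and with Sca-1 and CD140a was divided between the conditions, that all cells had first grown in hypoxia, and that the samples of a group are biologically independent.

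Mitochondrial DNA carries its own small set of genes. Both of its strands, called heavy and light, are transcribed into long precursor RNAs that start in a control region, and most mRNAs and rRNAs are released when the tRNAs between them are cut out. The mRNAs code for core subunits of respiratory complexes I, III, IV and V and the rRNAs build the mitochondrial ribosome, while the enzymes that copy, transcribe, cut and translate this genome are all encoded in the nucleus. Respiration at these complexes is where cells use most of their oxygen, so the comparison asks how the RNA output of this genome differed between the oxygen levels.

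Total counts lay between 12898291 and 25132141 per sample, with hypoxia replicate 1 deepest and the other 7 samples at no more than 13433824. All 12 stromal markers passed the filter on low counts. Their summed level was 86797 to 95532 CPM (counts scaled to library size) in hypoxia and 59320 to 64380 CPM in normoxia. Col1a1 (log2 change -0.74) and Col1a2 (-0.34) held by far the most of these counts, at up to 1276268 and 775694 in a sample. The others reached at most 23813. Of the others, Pdgfra (0.24), Nt5e (0.59), Cd44 (0.72) and Lepr (0.55) had log2 changes above 0 and the rest below 0. Among the 12 genes, 2 were lower and 2 higher in normoxia (limma-trend, adjusted p under 0.05, beside 16.5% lower and 18.0% higher over all 14369 genes tested). With replicate numbers as a block, 7 were lower and 4 higher (22.7% and 23.3%). The 8 blood cell markers summed to 467 to 921 CPM in hypoxia and 580 to 1077 CPM in normoxia, with Cd3e at 0 in every sample, and their part in the results was not tested. Of the 6 blood cell markers that passed the filter, 1 was higher (Lyz2, log2 change 0.56) and none lower, or 1 higher and 3 lower with the block (Csf1r, -0.59; Itgam, -0.46; Cd68, -0.28). Of 5 erythroid markers, 4 had no count in any sample. The endothelial list reached at most 0.858 CPM in sum.

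Of the 37 mitochondrial genes, 18 had at least 1 count in at least 1 sample and 19 had none in any sample. Both rRNAs, 12 of 13 mRNAs and 4 of 22 tRNAs were among those with counts, and mt-Atp8, a subunit of the ATP synthase (complex V), was the mRNA without. A count of 0 allows a level of up to 0.119 CPM in the deepest library and up to 0.233 CPM in the shallowest, taking 3 counts as the floor, which covers counting error only. This floor does not bound the RNA of a gene whose reads also match or overlap another, as mt-Atp8 overlaps mt-Atp6. A filter on low counts (filterByExpr with a minimum count of 5) left 12 genes for testing, which were both rRNAs, 9 mRNAs and the tRNA mt-Tp. The 6 others with counts were mt-Co2, with 15 counts in hypoxia replicate 3 and 10 in normoxia replicate 3, mt-Atp6, with 36 counts in hypoxia replicate 3 alone, mt-Co3, with 4 counts over all samples, and the tRNAs mt-Tq, mt-Tn and mt-Tc, with 1, 3 and 4 counts.

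The mRNAs that seemed to be missing have near-identical copies in the nuclear genome, and those copies carried the counts. The copies are annotated as 7 pseudogenes on the minus strand of chromosome 1 (GRCm38, chr1:24611535-24616197, a span of 4663 bases), in the same order as in mitochondrial DNA. For mt-Co2, a subunit of cytochrome c oxidase (complex IV), 25 counts fell on the mitochondrial gene and 217708 on Gm28661, which is identical over 681 bases. For mt-Atp6, which lines the proton channel of the ATP synthase, 36 counts stood against 229207 on Gm10925, identical over 678 bases. For mt-Co3, another complex IV subunit, 4 counts stood against 276635 on Gm28437, identical over 783 bases. A gap of 233 bases without an annotated gene lies between Gm10925 and Gm28661, at the place where mitochondrial DNA has mt-Atp8 and mt-Tk.

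The remaining 4 copies shared their counts differently. Gm29216 matches the last 483 bases of mt-Co1, the catalytic subunit of complex IV, with 1 mismatch, and held 187361 counts against 283458 on the mitochondrial gene. Gm28438 matches 345 bases of mt-Nd3, a complex I subunit, with 1 mismatch, and held 4077 counts against 29157. Gm10222 is identical to 294 bases of mt-Nd4l and Gm28439 to the first 876 bases of mt-Nd4, both complex I subunits, yet these copies held 2 and 21 counts against 10066 and 125488 on the mitochondrial genes. Less similar copies elsewhere, Gm13340 (97.6% identical to mt-Co1) and Gm13341 (95.9% identical to mt-Co2), held 533 and 688 counts. The reads were 150 bases long, how reads that match more than 1 place were counted is not stated, and from which of 2 identical copies an RNA came cannot be told apart.

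**Figure D1:**
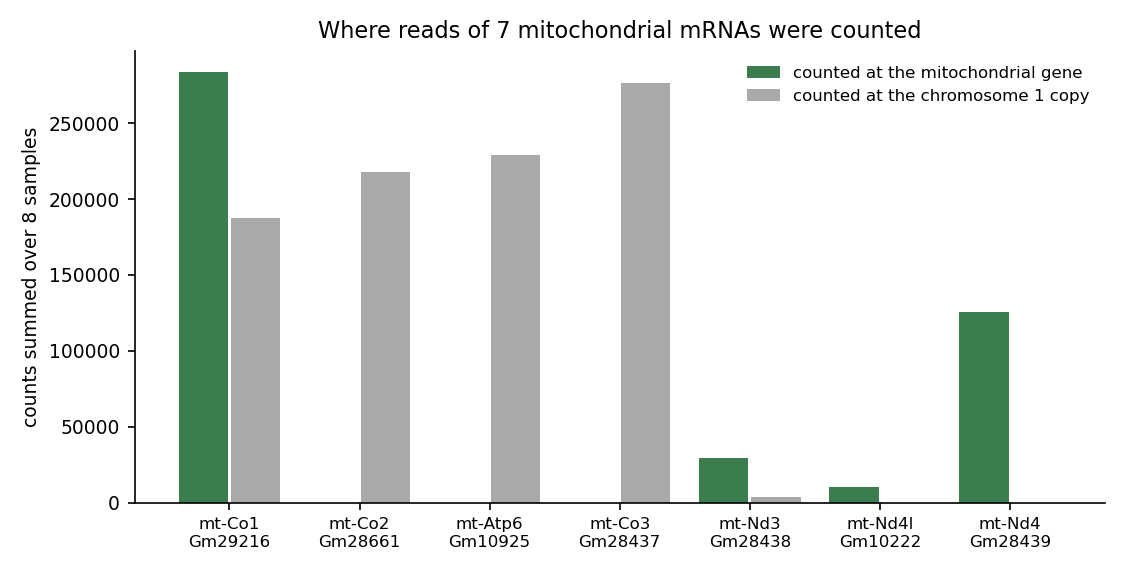
Counts summed over the 8 samples (vertical axis, linear) for 7 mitochondrial mRNAs, with green bars for counts at the mitochondrial gene and grey bars for counts at its near-identical copy on chromosome 1. For mt-Co2, mt-Atp6 and mt-Co3 nearly all counts stand at the copy, for mt-Nd4l and mt-Nd4 nearly all stand at the mitochondrial gene, and for mt-Co1 and mt-Nd3 both hold counts.

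The sequences show how little the copies differ, and they are taken from the GENCODE M21 transcripts on GRCm38. The first 90 bases of mt-Nd3 (chrM:9459-9548, plus strand) and of Gm28438 (chr1:24613030-24613119, minus strand) differ by T3C, counted from the first base of mt-Nd3, which is in capitals.
mt-Nd3: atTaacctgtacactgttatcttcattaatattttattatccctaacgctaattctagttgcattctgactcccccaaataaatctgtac
Gm28438: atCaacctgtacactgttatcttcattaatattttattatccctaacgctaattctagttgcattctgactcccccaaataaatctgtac
Where Gm29216 (chr1:24616099-24616188, minus strand) begins to match mt-Co1 (chrM:6390-6479, plus strand), the difference is A1066T, counted from the first base of mt-Co1 and again in capitals.
mt-Co1: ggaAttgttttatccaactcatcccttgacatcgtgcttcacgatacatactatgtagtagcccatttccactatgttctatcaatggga
Gm29216: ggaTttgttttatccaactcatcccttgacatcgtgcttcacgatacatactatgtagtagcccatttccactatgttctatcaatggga
The first 150 bases of mt-Co3 (chrM:8607-8756, plus strand), the length of a read, are the same letter for letter in Gm28437 (chr1:24613822-24613971, minus strand).
mt-Co3: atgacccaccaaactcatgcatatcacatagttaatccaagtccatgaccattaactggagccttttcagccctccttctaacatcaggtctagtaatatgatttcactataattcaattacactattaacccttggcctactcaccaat
Gm28437: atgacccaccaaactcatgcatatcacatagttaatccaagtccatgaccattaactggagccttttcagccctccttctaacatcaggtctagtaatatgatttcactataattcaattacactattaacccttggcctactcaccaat
The 204 bases of mt-Atp8 (chrM:7766-7969, plus strand), the mRNA without a count, end in 43 bases that are also the start of mt-Atp6, shown in capitals, so any read across this end overlaps both genes.
mt-Atp8: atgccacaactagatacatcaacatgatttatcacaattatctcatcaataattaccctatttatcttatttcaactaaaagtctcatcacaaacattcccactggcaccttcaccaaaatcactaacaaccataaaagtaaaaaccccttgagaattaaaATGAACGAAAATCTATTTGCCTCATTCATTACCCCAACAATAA

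The weight of the mitochondrial genome in the libraries was small and overlapped between the groups. The 37 genes held 0.840%, 0.786%, 0.709% and 0.844% of all counts in hypoxia replicates 1 to 4 and 0.896%, 0.841%, 0.766% and 0.871% in normoxia replicates 1 to 4. Adding the 7 chromosome 1 copies roughly doubled the share, to 1.41% to 1.67% in hypoxia and 1.46% to 1.72% in normoxia. Of this combined sum, the copies held 49.5% to 49.8% in hypoxia and 47.3% to 47.9% in normoxia, ranges that did not overlap. The share of the 37 genes was higher in normoxia in 4 of 4 pairs of the same replicate number, and that with copies in 3 of 4. Shares are scaled by library totals. With library totals alone, the median log2 change over all genes tested was 0.089, so a higher share in normoxia was not particular to these genes. No test was made on these shares, because they are sums over the chosen genes.

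Among the 12 genes tested, 3 were lower in normoxia and none was higher (limma-trend, adjusted p under 0.05, against 16.5% of all 14369 genes tested called lower and 18.0% called higher). The 3 were the rRNA mt-Rnr1, the mRNA mt-Nd3 and the tRNA mt-Tp, and the same 3 were those whose samples did not overlap between the groups (15.5% of all genes did not overlap with normoxia lower). The median log2 change of the 12 genes, normoxia minus hypoxia, was 0.043, beside 0.0049 over all genes tested, and the 9 others lay between -0.15 and 0.12 with limma-trend adjusted p of 0.188 to 0.935. In bulk RNA, less of a transcript per cell and fewer cells of a type cannot be told apart.

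Both rRNA genes lie at the start of the heavy-strand transcript, and only the first of them passed the test. mt-Rnr1 (ENSMUSG00000064337, chrM:70-1024, plus strand), the rRNA of the small mitochondrial ribosome subunit, stood at 192.5, 194.3, 169.4 and 207.6 CPM in hypoxia replicates 1 to 4 and at 134.7, 121.4, 106.4 and 130.9 CPM in normoxia replicates 1 to 4. Every hypoxia sample was above every normoxia sample. Its log2 change was -0.63 (SE 0.083, limma-trend adjusted p = 0.00023, lower in 4 of 4 pairs), so that the counted level fell by 35.5%.

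mt-Rnr2 (ENSMUSG00000064339, chrM:1094-2675, plus strand), the rRNA of the large subunit, is separated from mt-Rnr1 only by the tRNA gene mt-Tv, which had no count. It stood at 513.8, 475.1, 418.7 and 494.7 CPM in hypoxia and at 510.8, 430.2, 385.0 and 397.3 CPM in normoxia. The groups overlapped, with normoxia replicates 1 and 2 among the hypoxia values. Its log2 change was -0.15 (SE 0.092, limma-trend adjusted p = 0.241, lower in 4 of 4 pairs), and it passed the threshold when replicate numbers entered as a block (limma-trend adjusted p = 0.0226), which made 4 of 12 genes lower against 22.7% of all genes. It did so also without normoxia replicate 1 (log2 change -0.24, limma-trend adjusted p = 0.0368).

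The balance of the 2 rRNAs differed between the groups within the same libraries. The ratio of mt-Rnr1 to mt-Rnr2 counts was 0.375, 0.409, 0.405 and 0.420 in hypoxia replicates 1 to 4 and 0.264, 0.282, 0.276 and 0.329 in normoxia replicates 1 to 4. On the log2 scale it differed by -0.49 (two-sided exact permutation test over 70 assignments, p = 0.0286, the smallest these assignments allow, 0.0429 after adjustment over 3 ratios). These assignments ignored replicate numbers. With the samples taken as 4 pairs, an exact sign-flip test could not go below p = 0.125. The ratio of summed rRNA to summed mRNA counts was 0.0871, 0.0896, 0.0875 and 0.0902 in hypoxia and 0.0797, 0.0728, 0.0713 and 0.0666 in normoxia. This was a log2 difference of -0.29 (exact permutation p = 0.0286, adjusted 0.0429, lower in 4 of 4 pairs). The mRNA sum leaves out the chromosome 1 copies. They held 49.5% to 49.8% of mitochondrial and copy counts in hypoxia and 47.3% to 47.9% in normoxia. Ratios that include them are thus lower, and more so in hypoxia, which makes the difference between the groups smaller. Whether RNA was selected for poly(A) tails or depleted of rRNA before library preparation is not given in the sources used here. Either step would leave only part of the rRNA to be counted. Whether the rRNA counts and ratios follow the rRNA content of the cells was not tested. Counts on Gm26917, a nuclear gene with sequence like that of cytosolic rRNA, stood at 44.9 to 66.4 CPM in hypoxia and at 30.1 to 41.3 CPM in normoxia, and its part in the rRNA result was not tested.

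**Figure D2:**
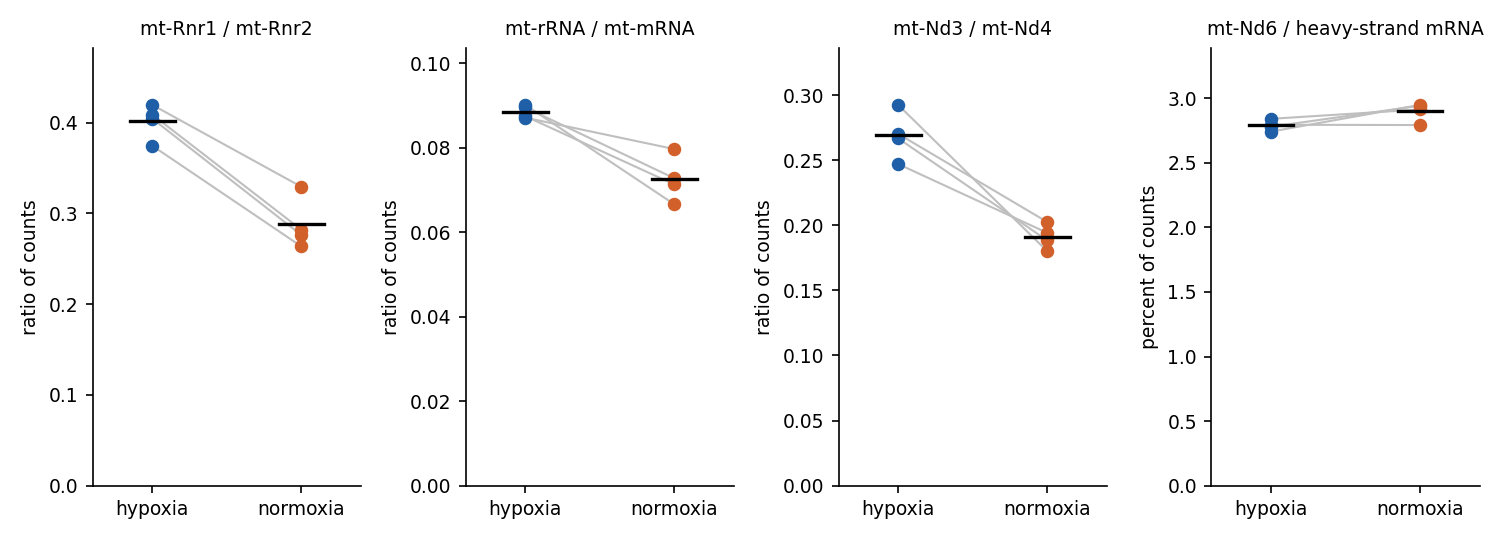
Ratios of counts within each sample (vertical axes from 0, as ratios or, on the right, as percent), with hypoxia in blue, normoxia in orange, black bars for group means of 4 samples and grey lines joining samples of the same replicate number. The ratio of mt-Rnr1 to mt-Rnr2 ran from 0.375 to 0.420 in hypoxia and from 0.264 to 0.329 in normoxia, whereas the share of mt-Nd6 overlapped between the groups.

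The mRNAs of complex I subunits made up 7 of the 13 mRNAs, and all of them were tested. Only mt-Nd3 (ENSMUSG00000064360, chrM:9459-9806, plus strand) passed the threshold, at 305.9, 258.5, 243.4 and 308.7 CPM in hypoxia and 237.5, 212.7, 185.6 and 207.1 CPM in normoxia. The lowest hypoxia sample lay just above the highest normoxia sample. Its log2 change was -0.40 (SE 0.092, limma-trend adjusted p = 0.0053, lower in 4 of 4 pairs). Its chromosome 1 copy Gm28438 moved by -0.45 (SE 0.10, limma-trend adjusted p = 0.0052), at 35.0 to 44.5 CPM in hypoxia and 24.6 to 32.1 CPM in normoxia.

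The other 6 complex I mRNAs had small changes that did not pass the threshold. mt-Nd1, the first mRNA of the heavy strand, had a log2 change of 0.01 and was higher in 2 of 4 pairs. mt-Nd2 (0.09), mt-Nd4l (0.12), mt-Nd4 (0.09), mt-Nd5 (0.08) and mt-Nd6 (0.07) had values above 0 in 4 of 4 pairs each, with limma-trend adjusted p of 0.188 for mt-Nd4l and 0.501 for mt-Nd6 and the rest between. After a correction for GC content and length, mt-Nd4l stayed at 0.09, whereas mt-Nd2 (-0.06), mt-Nd4 (-0.08), mt-Nd5 (-0.11), mt-Nd6 (-0.02) and mt-Nd1 (-0.13) were below 0, so their sign depends on that choice. With library totals alone as scaling, which moved the median of all genes by 0.084, mt-Nd4l was called higher (log2 change 0.21, limma-trend adjusted p = 0.0339).

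The contrast of mt-Nd3 with mt-Nd4, which lies beyond mt-Nd4l on the same strand, was visible without any scaling between libraries. Counts on mt-Nd3 were 0.270, 0.247, 0.267 and 0.293 of those on mt-Nd4 in hypoxia replicates 1 to 4 and 0.203, 0.194, 0.188 and 0.180 in normoxia replicates 1 to 4. These ranges did not overlap, and the ratio was chosen after its values were seen, so no test is given.

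The single mRNA of complex III, mt-Cytb (chrM:14145-15288, plus strand), which codes for cytochrome b, stood at 1458.5, 1324.9, 1162.7 and 1366.5 CPM in hypoxia and at 1511.6, 1433.0, 1287.4 and 1499.8 CPM in normoxia. The groups overlapped although normoxia was the higher sample in 4 of 4 pairs. Its log2 change was 0.11 (SE 0.083, limma-trend adjusted p = 0.330).

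Of the complex IV mRNAs, only mt-Co1 had enough counts of its own to be tested. It stood at 2576.0, 2416.5, 2242.7 and 2621.6 CPM in hypoxia and at 2476.3, 2331.4, 2185.2 and 2468.3 CPM in normoxia, with overlapping groups. Its log2 change was -0.06 (SE 0.079, limma-trend adjusted p = 0.610, lower in 4 of 4 pairs). It was called lower only with the GC and length correction (log2 change -0.23, limma-trend adjusted p = 0.0432).

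The chromosome 1 copies give values for the sequences of mt-Co2, mt-Atp6 and mt-Co3, whose own counts were too few to test. Gm28437, identical to mt-Co3, stood at 2780.5, 2513.4, 2415.5 and 2774.8 CPM in hypoxia and at 2265.0, 2010.3, 1884.9 and 2042.0 CPM in normoxia. Here the groups did not overlap. The log2 change was -0.35 (SE 0.082, limma-trend adjusted p = 0.0059, lower in 4 of 4 pairs).

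Gm28661 (mt-Co2), Gm10925 (mt-Atp6) and Gm29216 (the end of mt-Co1) overlapped between the groups. Gm10925 stood at 1757.0 to 2187.6 CPM in hypoxia and 1685.2 to 2066.5 CPM in normoxia. The log2 changes were 0.02 for Gm28661, -0.07 for Gm10925 and 0.00 for Gm29216, with limma-trend adjusted p of 0.911, 0.596 and 0.983. Counts on Gm28437 were 1.27, 1.25, 1.37 and 1.39 times those on the adjacent Gm10925 in hypoxia replicates 1 to 4 and 1.10, 1.08, 1.12 and 1.03 times in normoxia replicates 1 to 4, ranges that did not overlap. This ratio too was chosen after its values were seen and was not tested.

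**Figure D3:**
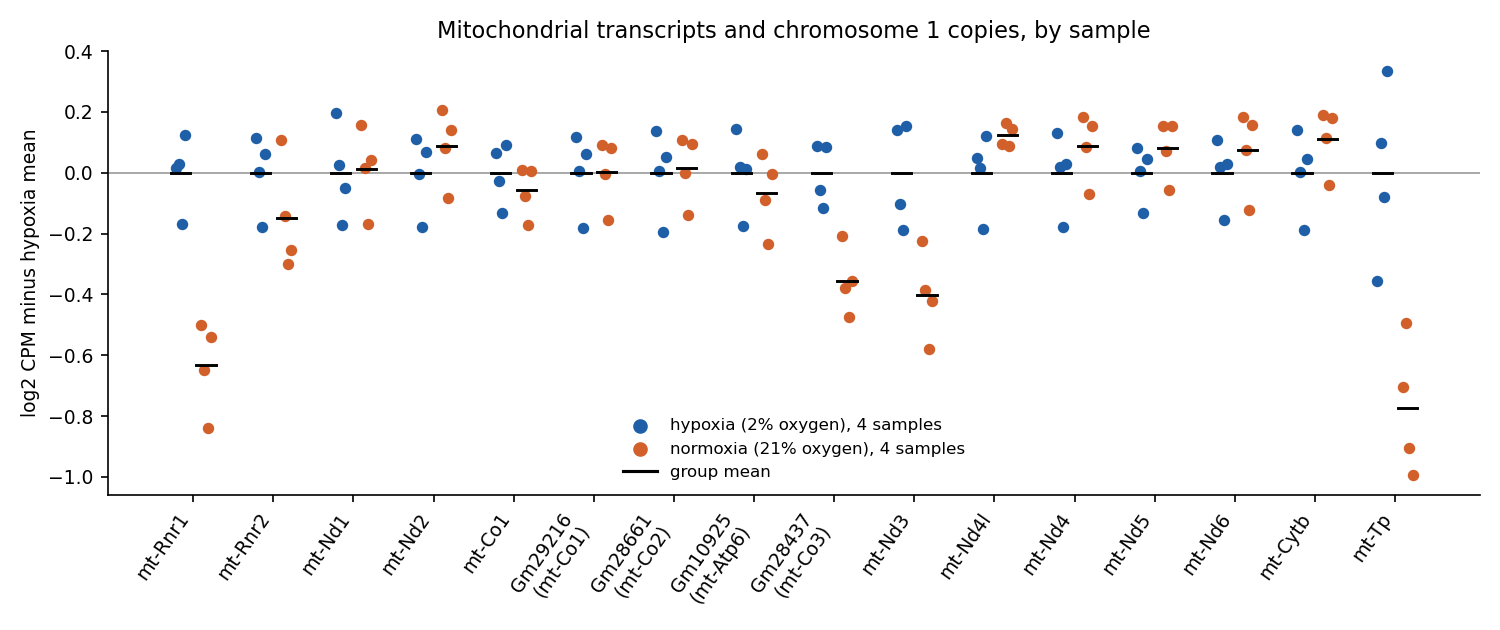
Level of each tested mitochondrial gene and of the 4 most counted chromosome 1 copies (mitochondrial match in brackets), as log2 CPM minus the mean of the hypoxia samples (vertical axis), in the order of mitochondrial DNA. Each point is a sample, blue for hypoxia and orange for normoxia, and black bars are group means. Separation of the groups is seen for mt-Rnr1, Gm28437, mt-Nd3 and mt-Tp, with mean changes of -0.63, -0.35, -0.40 and -0.77.

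When each mitochondrial gene was summed with its copy, a step chosen after the counts on the copies were seen, 15 of the 37 genes could be tested, 12 of them mRNAs. Then 4 were lower and none higher (16.6% of 14367 rows were lower and 18.0% higher in that table), namely mt-Rnr1, mt-Co3, mt-Nd3 and mt-Tp. mt-Co3 changed by -0.35 (SE 0.082, limma-trend adjusted p = 0.0058) and mt-Nd3 by -0.41 (SE 0.092, limma-trend adjusted p = 0.0049). These 2 genes are neighbours on mitochondrial DNA, with only the tRNA gene mt-Tg between them. The 10 other mRNAs lay between -0.07 and 0.12, on both sides of this stretch. Over the 11 heavy-strand mRNAs, the change had a Spearman rho of 0.40 with distance along the genome, given as a description since these RNAs share precursors and libraries.

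**Figure D4:**
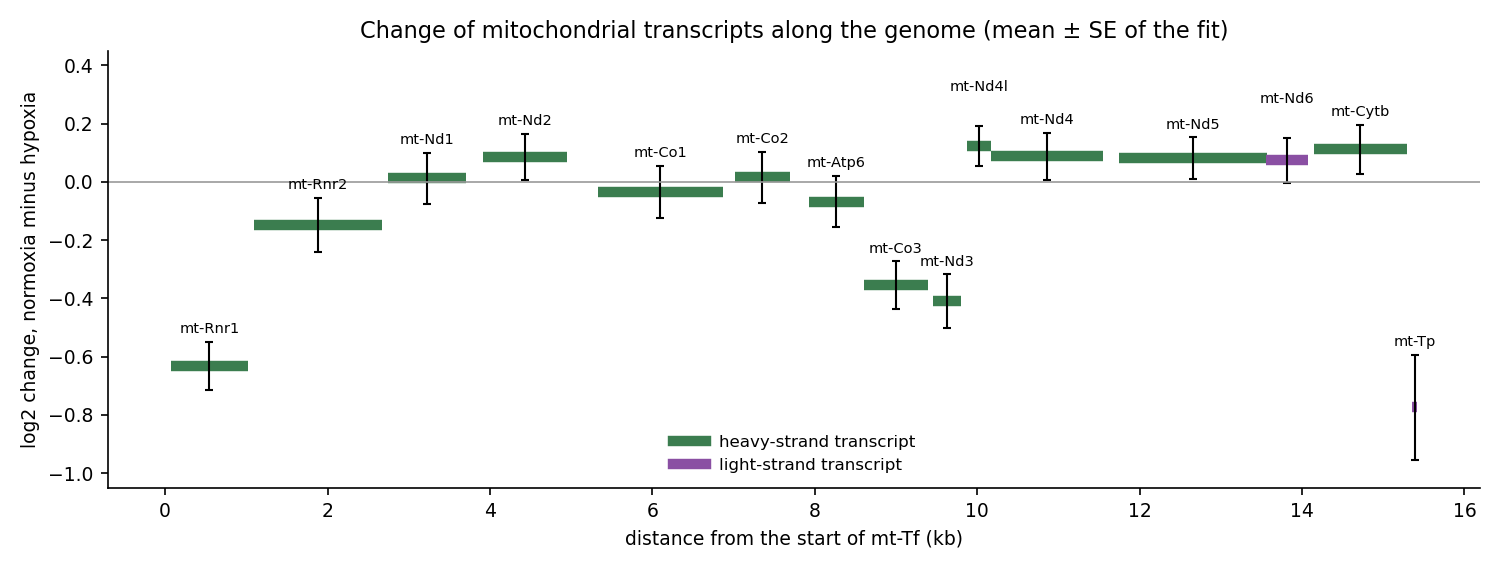
Log2 change (normoxia minus hypoxia, vertical axis) of each tested transcript, with counts of near-identical copies added where they hold counts, against the distance from the start of mt-Tf (horizontal axis, kb). Bars span the gene, green for heavy-strand and purple for light-strand transcripts, and error lines are the SE of the limma-trend fit over 4 samples a group. mt-Rnr1, the adjoining mt-Co3 and mt-Nd3, and mt-Tp lie below the other genes, at -0.63, -0.35, -0.41 and -0.77.

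The light strand codes for mt-Nd6 alone among the mRNAs. It stood at 219.2, 206.4, 182.7 and 207.9 CPM in hypoxia and at 231.4, 214.5, 187.1 and 227.1 CPM in normoxia, and its counts were 2.74% to 2.84% of those on heavy-strand mRNAs in hypoxia and 2.79% to 2.95% in normoxia. These ranges overlapped, and the log2 ratio differed by 0.06 (exact permutation p = 0.0857, the same after adjustment over 3 ratios). With the copies added to the heavy-strand sum the difference was 0.13 (exact permutation p = 0.0286), and with only those heavy-strand mRNAs that have no near-identical copy it was -0.003 (exact permutation p = 0.80). Whether counting used strand is not stated, so reads of mt-Nd6 and of heavy-strand RNA across the same place cannot be told apart.

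Of the 22 tRNA genes only mt-Tp (ENSMUSG00000064372, chrM:15356-15422, minus strand), the proline tRNA on the light strand beside the control region, passed the filter. Its 67 bases, the shortest sequence with a tested value, are shown as transcribed.
mt-Tp: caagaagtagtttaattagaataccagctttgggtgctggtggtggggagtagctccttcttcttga
The deposited counts were 101, 73, 66 and 90 in hypoxia replicates 1 to 4 and 44, 53, 39 and 35 in normoxia replicates 1 to 4. In CPM these were 4.2, 5.9, 5.1 and 6.9 against 3.3, 3.8, 2.8 and 2.6, without overlap. The log2 change was -0.77 (SE 0.18, limma-trend adjusted p = 0.0059, lower in 4 of 4 pairs). A read of 150 bases is longer than this gene and takes in sequence on either side, so the counts need not be mature tRNA.

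Levels per length showed the spread among these RNAs. Copies included, mt-Co3 (3343 ± 236 CPM per kb, SD, n = 4), mt-Atp6 (2920 ± 258) and mt-Co2 (2691 ± 253) led in hypoxia, and mt-Co1 (2626 ± 199) followed within the spread of mt-Co2. In normoxia mt-Atp6 (2786 ± 241 CPM per kb, SD, n = 4) came first, followed by mt-Co2 (2717 ± 210) and mt-Co3 (2616 ± 202), with mt-Co1 (2563 ± 169) after them, and each lay within the spread of the one before it. mt-Cytb followed these 4 in both groups, at 1161 ± 108 and 1253 ± 90.1 CPM per kb. The rRNAs, usually the most abundant RNAs of mitochondria, were low in these libraries, with mt-Rnr2 at 301 ± 26.0 CPM per kb in hypoxia and 272 ± 35.8 in normoxia and mt-Rnr1 at 200 ± 16.6 and 129 ± 13.2. mt-Nd3 stood above mt-Nd1 and mt-Nd4 by mean level in hypoxia (915 ± 109 CPM per kb, with mt-Nd1 at 888 ± 96.5 within its spread) and below both in normoxia (688 ± 69.9).

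Samples of a group deviated together across the genome. In hypoxia, replicate 3 was the lowest sample for 11 of the 12 tested genes, and in normoxia replicate 3 was the lowest for 11 of the 12 as well. The highest was replicate 1 for 7 genes in hypoxia and 9 genes in normoxia. Within pairs of the same number, 6 of the 9 tested mRNAs (mt-Nd2, mt-Nd4l, mt-Nd4, mt-Nd5, mt-Nd6 and mt-Cytb) were higher in normoxia in 4 of 4 pairs, by 0.07 to 0.10 on the log2 scale for mt-Nd2, and mt-Co1 and mt-Nd3 were lower in 4 of 4. With replicate numbers as a block none of the 6 was called (limma-trend adjusted p of 0.0693 for mt-Cytb to 0.224 for mt-Nd6).

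The nuclear genes that serve this genome were looked at as a list of 52, of which 49 passed the filter. Of these, 11 were higher and 4 lower in normoxia, with 34 past neither side (18.0% and 16.5% of all genes), and their median log2 change was 0.14. The core of the transcription machinery was among the 34. Polrmt, the mitochondrial RNA polymerase, changed by 0.02 (SE 0.11), Tfam, which packages mitochondrial DNA and bends its promoters, by 0.15 (SE 0.084), and Tfb2m, which opens the promoters, by 0.10 (SE 0.079), with limma-trend adjusted p of 0.901, 0.196 and 0.371.

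Genes for RNA handling after transcription moved in both directions. Pnpt1, an RNA-degrading phosphorylase, stood at 9.4 to 11.9 CPM in hypoxia and 14.3 to 16.5 CPM in normoxia, a log2 change of 0.53 (SE 0.10, limma-trend adjusted p = 0.0017). Lrpprc, which binds and stabilises mitochondrial mRNAs, rose by 0.26 (SE 0.072, limma-trend adjusted p = 0.0134). Its partner Slirp had no count in any sample. How reads that match or overlap several genes were counted is not stated, so this need not mean that Slirp RNA was absent. Of the subunits of the RNase P that cuts tRNA starts, Trmt10c rose by 0.39 (SE 0.13, limma-trend adjusted p = 0.0355) and Hsd17b10, also an enzyme of isoleucine breakdown, fell by 0.43 (SE 0.069, limma-trend adjusted p = 0.00069). Prorp, the subunit that makes the cut, had a log2 change of -0.12 (limma-trend adjusted p = 0.375). Calls for Trmt10c and Lrpprc were lost with the GC and length correction (limma-trend adjusted p = 0.291 and 0.117), Lrpprc also without normoxia replicate 1, and Trmt10c also without the filter and without hypoxia replicate 2 or 4 or normoxia replicate 1, 2 or 4.

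The translation factors included the largest rise of the list. Mtif2, the initiation factor that brings the first tRNA to the mitochondrial ribosome, stood at 11.5 to 13.4 CPM in hypoxia and 18.1 to 19.8 CPM in normoxia (log2 change 0.58, SE 0.085, limma-trend adjusted p = 0.00044). Ptcd3, a protein of the small ribosome subunit that holds mt-Rnr1, rose by 0.57 (SE 0.093, limma-trend adjusted p = 0.00076), while the counted level of mt-Rnr1 was lower. The elongation factor Gfm1 and the recycling factor Gfm2 rose by 0.41 and 0.38 (SE 0.097 and 0.11, limma-trend adjusted p = 0.0063 and 0.0226), and Ptcd1, a leucine tRNA and ribosome factor, rose by 0.41 (SE 0.12, limma-trend adjusted p = 0.0225). Calls for Gfm2 were lost with the GC and length correction and without hypoxia replicate 3 or 4 or normoxia replicate 1 or 2, and those for Ptcd1 without hypoxia replicate 3 or normoxia replicate 2 or 3. Beside Hsd17b10, the genes lower in normoxia were Fastk (-0.35), a factor for mt-Nd6 mRNA, the recycling factor Mrrf (-0.30) and the elongation factor Tufm (-0.23), named after their values were seen (limma-trend adjusted p = 0.0017, 0.0073 and 0.0113). The call for Tufm was lost with the GC and length correction (-0.06, limma-trend adjusted p = 0.540) and with library totals alone (-0.14, limma-trend adjusted p = 0.0764).

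**Figure D5:**
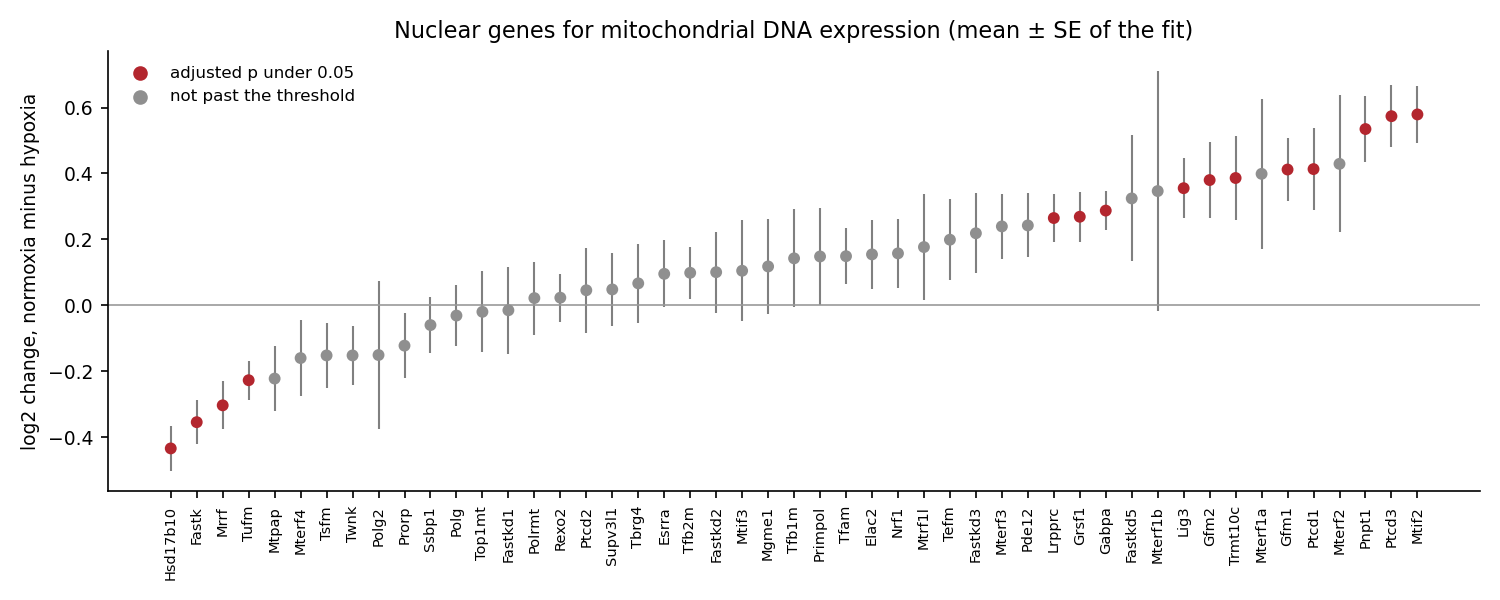
Log2 change (normoxia minus hypoxia, vertical axis) of the 49 tested nuclear genes for mitochondrial DNA expression, in order of their change, with error lines for the SE of the limma-trend fit over 4 samples a group. Red points have an adjusted p under 0.05, 11 above 0 and 4 below, and Polrmt, Tfam and Tfb2m are among the grey points.

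The respiratory complexes combine mitochondrial and nuclear subunits. The complex V list also held Atpif1, an inhibitor, and the complex IV list Cox7a2l, a factor for joining complexes. Both are counted among the nuclear subunits here. In complex I, 19 of 36 nuclear subunits were lower and 1 higher in normoxia (median log2 change -0.22), beside 16.5% lower, 18.0% higher and a median of 0.0049 over all genes, and of 7 mitochondrial subunits 1, mt-Nd3, was lower (median 0.08). In complex IV, 6 of 14 nuclear subunits were lower and none higher (median -0.23), and of 3 mitochondrial subunits, copies included, mt-Co3 was lower (median -0.03). In complex V, 9 of 17 nuclear subunits were lower and none higher (median -0.22), and mt-Atp6 with its copy changed by -0.07. In complex III, 1 of 9 nuclear subunits was lower (median -0.13), and mt-Cytb changed by 0.11. With the replicate block, which called 22.7% of all genes lower and 23.3% higher, 22 nuclear subunits of complex I were lower and 2 higher, 4 of complex III and 8 of complex IV were lower and none higher, and 9 of complex V were lower and 1 higher. No test compared the mitochondrial with the nuclear subunits.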

How the data were processed

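RNA-seq was performed on total RNA of 4 hypoxia-cultured and 4 normoxia-cultured MSC samples with NEBNext Ultra II libraries and single-end 150-base reads. The authors mapped reads with STAR 2.6.1a within zUMIs 2.2.1, counted them with featureCounts of Rsubread 1.32.4 on mm10 with Ensembl release 91, and deposited raw counts per gene. The submitters' notes and the study's methods do not state the use of strand, introns or reads that match several places. Symbols and positions came from GENCODE M21 (GRCm38, the same assembly), which named 53274 identifiers. Rows without a symbol held 0.0216% of the counts.

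As in the study, genes were kept by filterByExpr (minimum count 5; 14369 genes) and tested with limma-trend at an adjusted p of 0.05 (limma 3.58.1, edgeR 4.0.16, R 4.3.3). TMM scaling, log2 CPM with a prior count of 3 and Benjamini-Hochberg adjustment over all tested genes were chosen here, since the study does not state them. Changes are normoxia minus hypoxia on this scale, which understates changes of low genes. The percentages of all genes called or not overlapping stand beside the counts of members. The 3 ratios added 0.5 to each count and were tested by a two-sided exact permutation test that ignored replicate numbers. Near-identical copies (at least 99% over at least 150 bases) were found with blastn 2.17.0 among GENCODE transcripts. The edgeR quasi-likelihood test, DESeq2 1.42.0, limma-voom, other scalings, filters and prior counts, a GC and length correction by natural splines with 5 degrees of freedom, and leaving out each sample were alternatives. The summing with copies was added after seeing the data. The limma-trend fit with and without the replicate block, the edgeR and DESeq2 tests and limma-voom were tried on simulated data. The other alternatives were not.

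Replicate numbers occur in both groups, and the study divided a sorted population between conditions. Deviations of same-numbered samples from their group means correlated at 0.474, 0.275, 0.249 and 0.172 over genes. Correlations of differently numbered samples are not given beside them, so these values alone do not show pairing. The numbers were taken to pair the samples, and calls with the replicate block rest on that choice.

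The members, the lists of nuclear genes and markers, and the tests were chosen with earlier results of these data known. The genes named are all members with counts, Polrmt, Tfam, Tfb2m and Lrpprc, and the 8 further genes of the nuclear list with the largest absolute changes past the threshold. Others were named after their values were seen.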

Additional observations from a re-analysis of the deposited data

Results flagged for a closer look

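Of 70 sets of 4 values searched with Dixon's test for a sample far from the others of its group, 1 was found, where chance gives about 1 in 20 sets, or 3.5. It was the total count of hypoxia replicate 1, 25132141, against 12929564 to 13219647 in the other 3 hypoxia samples. None of the levels, shares and ratios of the mitochondrial transcripts in this search stood apart in this way.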

How the results depend on the processing

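The falls of mt-Rnr1, mt-Nd3 and mt-Tp kept their direction and passed the threshold under all 30 alternatives run for each. These include fits with the copies summed. mt-Rnr1 and mt-Tp have no near-identical copy, so for them those fits left their own counts unchanged and nearly repeat other fits. With the replicate block the count of members lower went from 3 to 4 by adding mt-Rnr2, and with the copies summed and the block it was 5 (22.7% of all rows), while the block changed no other call among the members and copies named. The GC and length correction made 5 members lower (adding mt-Rnr2 and mt-Co1; 14.2% of all genes), and with the replicate block beside it 6 (20.6% of all genes), adding mt-Nd1, whose log2 change went from 0.01 to -0.13 (limma-trend adjusted p = 0.0493, range over its alternatives 0.0493 to 1.00), and the copy Gm10925 was then called too (-0.18). A real difference that runs along with GC content or length is taken out by this correction too. It left 7 (14.9% of all genes) rather than 11 nuclear genes of the expression list higher. With the block beside it 10 were higher, for which no share of all genes is given, so that count cannot be weighed. The correction gave complex I nuclear subunits a median of -0.11 with and without the block. With library totals alone, 1 member (mt-Nd4l) was higher rather than 0 (25.1% of all genes), and the medians were -0.13 for complex I and -0.043 for complex III nuclear subunits. Leaving out single samples gave 3 to 4 members lower (4 to 5 with the copies summed), 8 to 14 nuclear genes of the list higher and 4 to 5 lower, beside 12.5% to 17.6% of all genes lower and 13.8% to 19.5% higher. The log2 ratio of rRNA to mRNA then ran from -0.34 to -0.25, and the exact permutation p was 0.0571 whenever a hypoxia sample was left out, since another assignment of samples then gave as large a difference. The ratio of mt-Rnr1 to mt-Rnr2 ran from -0.55 to -0.44, with an exact permutation p = 0.0571 without hypoxia replicate 4, and that of mt-Nd6 to heavy-strand mRNAs from 0.047 to 0.073, with p = 0.0286 without normoxia replicate 3, while the copies summed gave 0.13. Over 4 pairs an exact sign-flip test cannot go below p = 0.125, so the ratios were not tested as pairs. Apart from the construction of each alternative, the cause of these shifts was not tested. For mt-Atp8 and the tRNAs that did not pass the filter, a level under the floor cannot be told from 0. Reads across the end of mt-Atp8 also overlap mt-Atp6, and a read of 150 bases is longer than a tRNA gene. How such reads were counted is not stated, so these low counts need not reflect depth alone. For mt-Co2, mt-Atp6 and mt-Co3 the counts stand on identical copies.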
